A study of Homo sapiens with 12 samples.

Results

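TFF1, TFF2, TFF3, AGR2, GKN2, SPINK1, SPINK4, LYZ and TCN1 encode proteins that mucous epithelia secrete or use to fold their secretions. These 9 genes, of 19775 with a named probe set, were read on every probe set whose only gene symbol is 1 of theirs, which gave 11 of 54675 probe sets. They were chosen by their role and also on measured differences between the groups of this study, so their own values are given as a description and carry no test. The arrays hold RNA of MDA-MB-231, a human breast cancer cell line of mesenchymal character, in 3 groups of 4 replicates lettered A to D. Control cells carry a retroviral hairpin against GFP. The shHIF cells carry retroviral hairpins against HIF1a and HIF2a, the oxygen-regulated alpha subunits of the hypoxia-inducible factors. The third group overexpresses Sharp1, a basic helix-loop-helix repressor encoded by BHLHE41, from a vector that the sources used here do not name, and no matched empty vector is among the groups analysed here. All cells were untreated and grew in normal culture in DMEM/F12 with serum and glutamine. The labels call the replicates biological, and nothing says whether they came from separate cultures or infections, so the p-values given here speak only for the spread among these 12 arrays.

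Trefoil peptides are small, disulfide-rich proteins that epithelia of the stomach and intestine release together with mucins, and they take part in the repair of a damaged surface. AGR2 is a disulfide isomerase of the endoplasmic reticulum that is needed for mucin production in the gut, and GKN2 is a gastrokine of gastric surface cells that forms a disulfide-bonded dimer with TFF1. SPINK1 and SPINK4 are Kazal-type serine protease inhibitors, LYZ is lysozyme, which cuts bacterial cell walls, and TCN1 is haptocorrin, a secreted carrier of cobalamin.

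Values are log2 signals made by RMA, a summary of each probe set that includes background correction and normalisation between arrays. The median probe set read 5.41, and array medians lay between 5.39 and 5.44. Correlations were at least 0.996 within a group and at most 0.995 between groups. As a check of the labels, BHLHE41 was higher by 5.35 in Sharp1 cells on 1 probe set and by 1.59 on another, and it was lower by 2.06 (log2 difference -2.06) on its brightest one. On a further, dim probe set BHLHE41 differed by -0.125. EPAS1, which encodes HIF2a, differed by -2.85 on its brightest probe set and HIF1A by -0.73 in shHIF cells. In Sharp1 cells EPAS1 differed by -0.71 on that probe set and HIF1A by 0.09. The other EPAS1 probe sets were dim and differed by -0.12 and 0.11 in shHIF and by 0.01 and 0.10 in Sharp1 cells. The mean of the 24 spike-in probe sets was lowest in shHIF cells, at 7.52 (array A) and 7.51 (array D), and lay between 7.73 and 8.07 elsewhere. The gap between the 3′ and 5′ actin probe sets was 0.94, 0.90 and 0.91 on shHIF arrays A, B and C and 0.62 on D, and 0.61, 0.56, 0.85 and 0.68 on Sharp1 arrays A to D, against 0.59 to 0.74 in control cells. Leaving out shHIF arrays A and D moved 1 difference of the 9 genes by more than the SD between replicates, that of LYZ between Sharp1 and shHIF cells. The part of the actin gap in the values below was not tested. Of 10 markers of MDA-MB-231, 9 were above the median probe set in every group, SPARC being the exception. Of 14 markers of luminal breast cells, 10 were also above it in every group, all but PGR, FOXA1, CDH1 and AGR3.

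The 3 trefoil genes were lower in both modified lines, in the same order of groups. Each was highest in control cells, intermediate in shHIF cells and lowest in Sharp1 cells, with no overlap between any pair of groups. Over all genes, the groups did not overlap for 28.9% in Sharp1 against control, 28.6% in shHIF against control and 35.4% in Sharp1 against shHIF, and 27.2%, 30.8% and 38.4% passed an adjusted p of 0.05 in the limma fit. The trefoil genes were chosen on these differences, so nothing is read from this. TFF1, TFF2 and TFF3 lie side by side on chromosome 21. RNA came from whole cultures, so fewer cells with a transcript and less of it per cell cannot be told apart.

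TFF1, widely known as an oestrogen-induced gene of breast cancer cells, read 6.94, 7.10, 7.17 and 7.45 on control arrays A to D. In shHIF cells it read 5.62, 6.02, 5.73 and 5.73. In Sharp1 cells it read 4.80, 4.19, 4.65 and 4.56. All 4 Sharp1 arrays were thus below the median probe set, and all 8 others were above it. The mean log2 level was 7.16 ± 0.22 (SD, n = 4) in control, 5.78 ± 0.17 in shHIF and 4.55 ± 0.26 in Sharp1 cells. The level was 6.12-fold lower in Sharp1 than in control cells (log2 difference -2.61, SE 0.12) and 2.62-fold lower in shHIF cells (-1.39, SE 0.12), the Sharp1 value being dim.

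TFF2, the spasmolytic peptide of gastric neck cells, read 9.94, 9.81, 9.59 and 10.29 on control arrays A to D. The shHIF arrays read 8.01, 8.08, 8.26 and 8.09. The Sharp1 arrays read 6.13, 6.46, 6.58 and 6.49. Every group stood more than 1 log2 unit from the next. Of the 9 genes, TFF2 had the largest difference in Sharp1 cells, 11.3-fold lower than in control (log2 difference -3.49, SE 0.11). It was 3.48-fold lower in shHIF than in control cells (-1.80, SE 0.11), and 3.23-fold lower in Sharp1 than in shHIF cells (-1.69, SE 0.11).

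TFF3, the trefoil peptide of intestinal goblet cells, read 7.81, 7.84, 7.95 and 8.14 on control arrays A to D. It read 7.10, 7.41, 7.21 and 7.21 in shHIF and 6.13, 6.49, 5.98 and 6.31 in Sharp1 cells. The differences were smaller than for TFF1 and TFF2, and the groups still did not overlap. TFF3 was 3.27-fold lower in Sharp1 (log2 difference -1.71, SE 0.10) and 1.63-fold lower in shHIF cells (-0.70, SE 0.10) than in control.

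**Figure D1:**
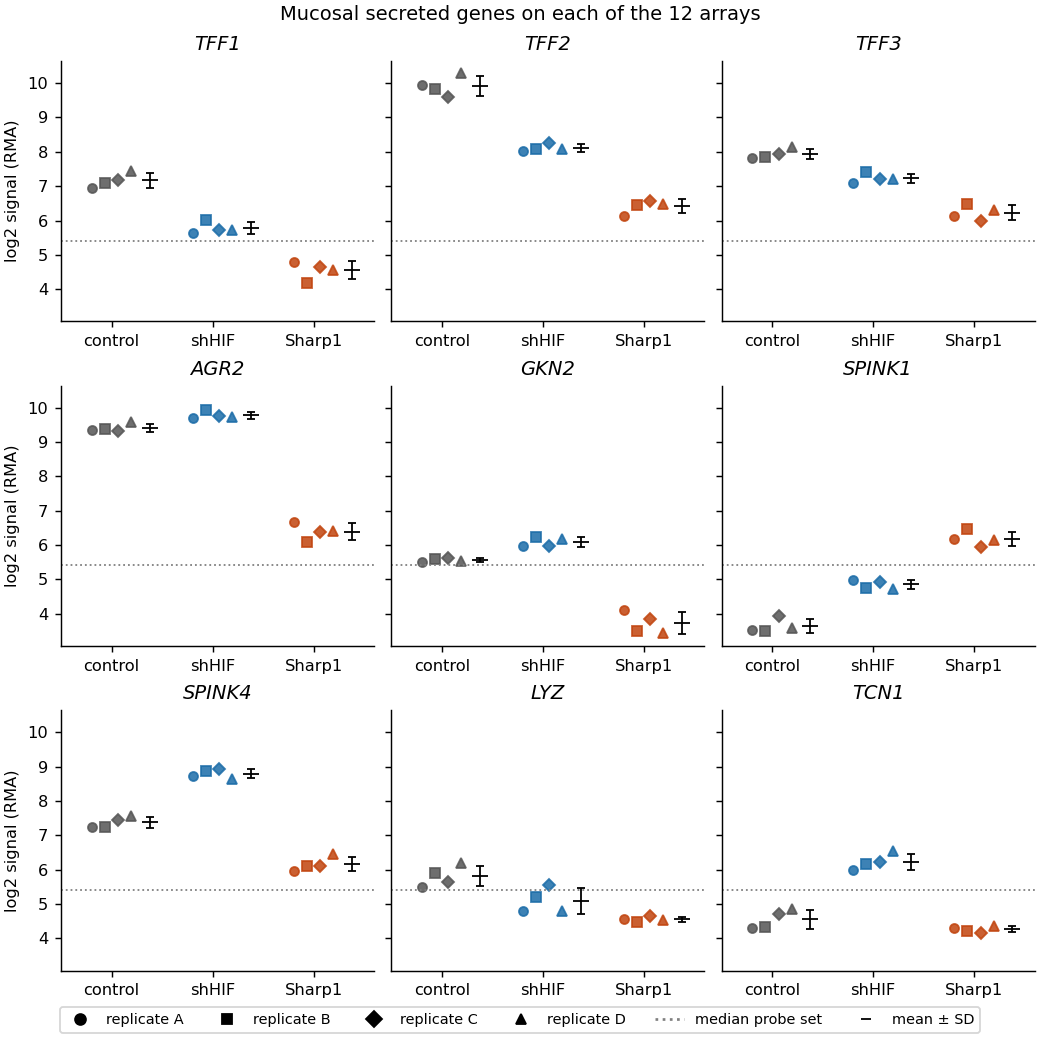
Log2 RMA signal (vertical axis, same scale in all panels) of the brightest probe set of each of the 9 genes on the 4 arrays of each group, with the group mean and SD beside the points and the median probe set (5.41) as a dotted line. The 3 trefoil genes step down from control to shHIF to Sharp1, AGR2, GKN2 and SPINK4 are highest in shHIF, SPINK1 steps up, LYZ steps down with shHIF arrays that overlap control, and TCN1 stands high in shHIF only.

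AGR2, GKN2 and SPINK4 had a different order, with shHIF cells highest and Sharp1 cells lowest, and SPINK1 was lowest in control and highest in Sharp1 cells. The 250 bases before the start of these 4 genes are printed to set the 3 genes of 1 pattern beside the SPINK gene that departs from it. They are from RefSeq (GRCh38.p14), 5′ to 3′ on the strand of the gene. The regions are chr7:16805000-16805249 for AGR2 (minus strand), chr2:68952894-68953143 for GKN2 (minus strand), chr9:33239917-33240166 for SPINK4 (plus strand) and chr5:147831672-147831921 for SPINK1 (minus strand). Capitals mark the TATA box TATAAA and the core GCGTG of the hypoxia response element.
AGR2: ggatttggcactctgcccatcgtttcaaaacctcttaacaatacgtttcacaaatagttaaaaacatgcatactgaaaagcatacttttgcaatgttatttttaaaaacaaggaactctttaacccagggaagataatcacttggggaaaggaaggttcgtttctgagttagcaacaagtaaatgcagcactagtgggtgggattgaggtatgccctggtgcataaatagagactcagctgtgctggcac
GKN2: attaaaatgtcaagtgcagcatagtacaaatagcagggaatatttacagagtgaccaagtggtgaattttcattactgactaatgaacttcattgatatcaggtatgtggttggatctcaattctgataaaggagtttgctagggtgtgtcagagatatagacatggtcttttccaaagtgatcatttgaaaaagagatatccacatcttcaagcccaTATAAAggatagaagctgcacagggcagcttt
SPINK4: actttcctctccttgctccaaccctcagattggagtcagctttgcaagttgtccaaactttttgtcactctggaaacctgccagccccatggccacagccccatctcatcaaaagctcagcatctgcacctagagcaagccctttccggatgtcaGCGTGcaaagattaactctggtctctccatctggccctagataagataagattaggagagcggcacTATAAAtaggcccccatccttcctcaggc
SPINK1: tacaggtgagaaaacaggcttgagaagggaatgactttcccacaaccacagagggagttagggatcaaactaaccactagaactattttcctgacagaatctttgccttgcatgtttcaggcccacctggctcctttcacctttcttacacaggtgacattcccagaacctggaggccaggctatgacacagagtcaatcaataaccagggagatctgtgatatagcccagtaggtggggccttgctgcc

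Letters searched on both strands were ACGTG and GCGTG, the cores bound by hypoxia-inducible factors, CACGTG, the E-box bound by Sharp1 and its relatives, CANNTG, the general E-box, and TATAAA. Every CACGTG is also an ACGTG and a CANNTG. Of the 9 genes, 5 have a window in the table, the fifth being TCN1 (chr11:59866488-59866737, minus strand). GCGTG was found in SPINK4 at positions -95 to -91 from the start and in none of the other 4, and it occurs in 32.2% of 35116 windows of this length. ACGTG, in 18.5% of all windows, and CACGTG, in 6.34%, were found in 0 of the 5. CANNTG, in 61.8% of all windows, was found in all 5. TATAAA, in 10.7% of all windows, was found in GKN2 at -32 to -27 and in SPINK4 at -29 to -24. A match describes letters in this window and is no evidence of binding.

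AGR2 was the gene with the second largest difference in Sharp1 cells, and it was slightly higher in shHIF cells. It read 9.36, 9.37, 9.31 and 9.57 on control arrays A to D, 9.69, 9.93, 9.75 and 9.72 in shHIF cells, and 6.67, 6.08, 6.37 and 6.42 in Sharp1 cells. The Sharp1 arrays stood far below all others, and the lowest shHIF array was just above the highest control array. AGR2 was 8.08-fold lower in Sharp1 than in control cells (log2 difference -3.01, SE 0.09) and 1.29-fold higher in shHIF cells (0.37, SE 0.09). Against shHIF cells, Sharp1 cells were 10.4-fold lower (-3.38, SE 0.09).

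A second probe set of AGR2 was dim in every group, below the median probe set on all 12 arrays. It read 4.85 to 5.09 in control, 4.87 to 5.40 in shHIF and 4.20 to 4.87 in Sharp1 cells. Sharp1 cells were again lowest on average, and their highest array overlapped control. The difference from control was -0.55 in Sharp1 and 0.15 in shHIF cells on this probe set. With the mean of both probe sets in place of the brighter one, the Sharp1 difference of AGR2 was -1.78 from control and -2.05 from shHIF.

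GKN2, the gastrokine that pairs with TFF1, showed the same order at a lower signal. It read 5.50, 5.60, 5.61 and 5.55 on control arrays A to D, 5.96, 6.25, 5.98 and 6.17 in shHIF cells, and 4.11, 3.50, 3.86 and 3.44 in Sharp1 cells. Control arrays lay just above the median probe set and all Sharp1 arrays well below it, so the Sharp1 value lies in the dim range of the array. GKN2 was 3.57-fold lower in Sharp1 (log2 difference -1.84, SE 0.12) and 1.44-fold higher in shHIF cells (0.52, SE 0.12) than in control.

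SPINK4, a protease inhibitor of goblet cells, was the gene of this set with the widest swing between the modified lines after AGR2. It read 7.23, 7.26, 7.46 and 7.55 on control arrays A to D, 8.74, 8.88, 8.93 and 8.64 in shHIF cells, and 5.97, 6.11, 6.11 and 6.45 in Sharp1 cells. The groups were separate, with control between the others. SPINK4 was 2.68-fold higher in shHIF (log2 difference 1.42, SE 0.09) and 2.32-fold lower in Sharp1 cells (-1.21, SE 0.09) than in control. Sharp1 cells were 6.21-fold below shHIF cells.

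SPINK1, the trypsin inhibitor that the pancreas secretes, was the only 1 of the 9 genes that was higher in Sharp1 cells. It read 3.52, 3.51, 3.94 and 3.59 on control arrays A to D, 4.98, 4.76, 4.94 and 4.73 in shHIF cells, and 6.18, 6.46, 5.93 and 6.16 in Sharp1 cells. Control and shHIF arrays were all below the median probe set and all Sharp1 arrays above it. SPINK1 was 5.82-fold higher in Sharp1 (log2 difference 2.54, SE 0.12) and 2.32-fold higher in shHIF cells (1.22, SE 0.12) than in control, and these folds start from a dim control signal. In Sharp1 cells the inhibitors SPINK1 and SPINK4 thus differed from control in opposite directions, and in shHIF cells both were higher.

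LYZ, an enzyme of innate defence found in many mucosal secretions and in myeloid cells, was lower in Sharp1 cells. It read 5.51, 5.90, 5.65 and 6.20 on control arrays A to D, 4.81, 5.20, 5.56 and 4.79 in shHIF cells, and 4.55, 4.47, 4.64 and 4.54 in Sharp1 cells. Sharp1 arrays lay below all others, and shHIF array C was above control array A. LYZ was 2.40-fold lower in Sharp1 than in control cells (log2 difference -1.26, SE 0.15) and 1.65-fold lower in shHIF cells (-0.72, SE 0.15). The lowest shHIF values came from arrays A and D, those with the low spike-in signal. Without these 2 arrays the shHIF difference from control was -0.43, and the Sharp1 difference from shHIF was -0.83 in place of -0.54.

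A second probe set of LYZ was dim, at 3.56 to 4.35 over all 12 arrays. Its groups overlapped in every comparison, with differences from control of -0.42 in Sharp1 and -0.29 in shHIF cells. The mean of both probe sets gave -0.84 in Sharp1 cells. Of 10 myeloid markers measured, 3 were above the median probe set in every group, and PTPRC, CD14, S100A8, S100A9, CD163, TYROBP and MPO were below it. The mean of all 10 was 4.72 to 4.78 on control, 4.77 to 4.85 on shHIF and 4.63 to 4.85 on Sharp1 arrays. Of the 10, PTPRC rose by 0.44 in Sharp1 (limma adjusted p = 0.00413) and by 0.37 in shHIF cells (adjusted p = 0.0144), and AIF1 fell by 0.27 in Sharp1 cells (adjusted p = 0.0263). Both are named after their values were seen, and their part in the LYZ values was not tested.

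TCN1, the cobalamin carrier of saliva and gastric juice, stood apart in shHIF cells. It read 4.31, 4.34, 4.72 and 4.87 on control arrays A to D, 5.98, 6.17, 6.21 and 6.54 in shHIF cells, and 4.31, 4.23, 4.16 and 4.36 in Sharp1 cells. All shHIF arrays were above the median probe set, and Sharp1 and control arrays overlapped below it. TCN1 was 3.17-fold higher in shHIF than in control cells (log2 difference 1.67, SE 0.12). The Sharp1 difference from control was -0.29 (SE 0.12), and it lay between -0.38 and -0.19 when any 1 array was left out.

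**Figure D2:**
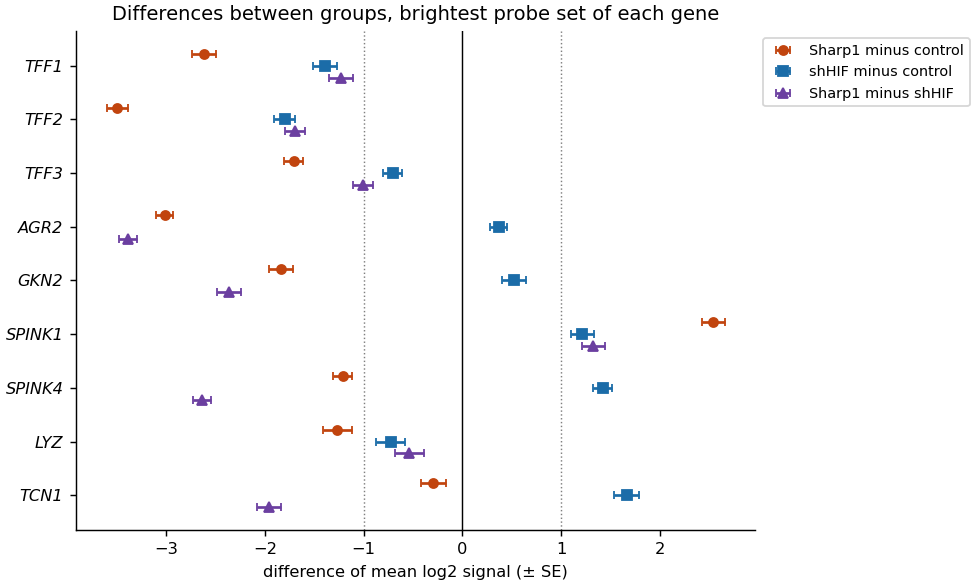
Difference of mean log2 signal (horizontal axis, bars are ± SE of the fit over all genes) for the brightest probe set of each gene, with dotted lines at a 2-fold difference. In Sharp1 against control 7 genes lie left of the 2-fold line, SPINK1 lies right of it at 2.54 and TCN1 lies near 0 at -0.29, while in shHIF against control TFF1 and TFF2 lie left and SPINK1, SPINK4 and TCN1 lie right.

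Counted over the set, 7 of 9 genes were at least 2-fold lower and 1 at least 2-fold higher in Sharp1 than in control cells, and 1.68% of all genes differed by 2-fold or more. The fit over all genes includes the 9, and it called 8 of them beside 27.2% of all genes. In shHIF against control it called 9 of 9 beside 30.8% of all genes, with 5 higher and 4 lower. At least a 2-fold difference was seen for 2 lower genes, TFF1 and TFF2, and for 3 higher ones, SPINK1, SPINK4 and TCN1, beside 0.652% of all genes. In Sharp1 against shHIF, where control arrays enter only the estimate of the spread, it called 9 of 9 beside 38.4% of all genes, with SPINK1 higher and 8 lower. The choice of genes on these comparisons fixes such counts, so they are no test and nothing is read from them. The median log2 difference of the 9 genes was -1.71, 0.37 and -1.69 in the 3 comparisons, and that of all genes was -0.002, 0.05 and -0.06. Both comparisons against control share the same 4 control arrays.

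Array D was the highest control array for 7 of the 9 genes, all but GKN2 and SPINK1. It was also the highest control array for 35.1% of all genes. Array A was the lowest control array for 6 of the 9, and for 21.0% of all genes. Among shHIF arrays, A was the lowest for 6 of the 9, and for 25.3% of all genes. With each array left out in turn, the 2-fold counts against control stayed at 7 lower and 1 higher in Sharp1 and at 2 lower and 3 higher in shHIF cells. With probe sets averaged 6 were lower in Sharp1 cells, and without dim genes 5.

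Among the 9 genes, patterns were compared by the root mean square difference over the 12 arrays after each gene was centred on its control mean, in log2 units. The closest pair was LYZ and TFF3, at 0.356. SPINK4 and TCN1, both high in shHIF cells, were 0.582 apart, TFF1 was 0.614 from TFF2 and 0.696 from TFF3, and GKN2 was 0.690 from SPINK4 and 0.698 from AGR2. SPINK1 was at least 1.67 from each of the others. Over all genes, the nearest to TFF1 were ITGB2 and S100A2, both at 0.332, and the nearest to TFF2 were SLCO4A1 at 0.375 and then TFF1. SDR16C5 (0.149) and TMCC3 (0.152) were nearest to TFF3, and RRAGD (0.228) and SLAMF7 (0.293) to AGR2. INPP4B (0.208) and CD74 (0.222) were nearest to GKN2, and NNMT (0.327) and CCND2 (0.407) to SPINK1. MMP1, a secreted collagenase, was nearest to SPINK4 at 0.182, followed by AKR1C1 at 0.223. PPL (0.213) and RUNDC3B (0.216) were nearest to LYZ, and HCP5 (0.192) and ARRDC4 (0.305) to TCN1.

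The genes beside each member on its chromosome were not used to choose the set and were tested. Of 42 neighbours, the 3 tested genes on each side of each locus, 2 were higher and 9 lower in Sharp1 than in control cells, a share of 26.2% beside 27.2% of all genes. In shHIF cells 6 were higher and 10 lower, 38.1% beside 30.8%. Beside the trefoil cluster, ABCG1, a sterol exporter that follows TFF3, fell by 0.80 (SE 0.13, limma adjusted p = 1.67e-05) in Sharp1 cells, from a control level of 5.18, below the median probe set. With the mean of its 4 probe sets ABCG1 fell by 0.31 (adjusted p = 0.00151). In shHIF cells ABCG1 fell by 0.46 (adjusted p = 0.00529), a call lost with that mean (adjusted p = 0.117). On the other side, TMPRSS3, a membrane serine protease next to TFF1, differed by 0.01 in both comparisons (adjusted p = 0.967 and 0.948), at a level below the median probe set.

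AGR3, the sister gene of AGR2 beside it on chromosome 7, was listed at 2.67 in control, 2.88 in shHIF and 2.71 in Sharp1 cells, at the bottom of the signal range. Its difference from control was 0.04 in Sharp1 (limma adjusted p = 0.856) and 0.22 in shHIF cells (adjusted p = 0.120). In Sharp1 cells LOC101927609, on the far side of AGR3, fell by 0.85 (SE 0.10, limma adjusted p = 1.7e-07). In shHIF cells it rose by 0.28 (adjusted p = 0.0321), a call lost without control array A, B or C or shHIF array B or C (adjusted p up to 0.082). TSPAN13, a tetraspanin on the other side of AGR2, fell by 0.45 in Sharp1 (adjusted p = 5.53e-07) and rose by 0.23 in shHIF cells (adjusted p = 0.00233), and it is named here after its values were seen.

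GKN1, the gastrokine beside GKN2 on chromosome 2, was at 3.93 in control cells, and its differences of -0.05 in Sharp1 and 0.19 in shHIF cells did not pass (limma adjusted p = 0.789 and 0.188). ARHGAP25, on the other side of GKN2, fell by 0.59 in Sharp1 cells (limma adjusted p = 0.000252), its 3 probe sets running from -0.59 to -0.05. GFPT1, the enzyme that opens hexosamine synthesis, fell by 0.76 in shHIF (limma adjusted p = 9.89e-12) and by 0.25 in Sharp1 cells (adjusted p = 0.000231). The 4 probe sets of GFPT1 ran from -0.76 to -0.12 in shHIF and from -0.31 to -0.13 in Sharp1 cells. Near SPINK1 on chromosome 5, C5orf46 rose by 0.73 in shHIF cells (adjusted p = 2.98e-09), and its Sharp1 difference of -0.15 did not pass (adjusted p = 0.103). No neighbour of SPINK4 on chromosome 9, LYZ on chromosome 12 or TCN1 on chromosome 11 passed with a difference of 0.5 or more from control.

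**Figure D3:**
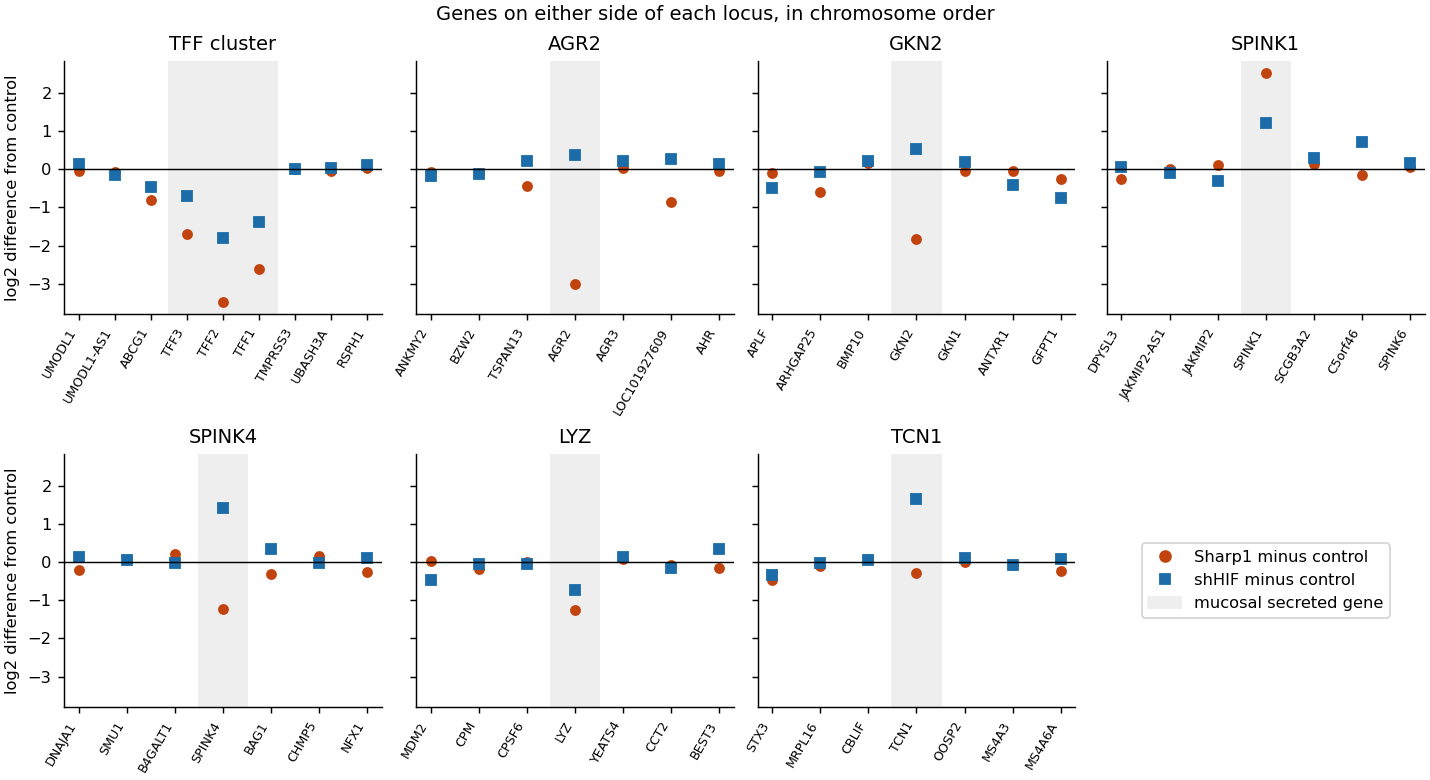
Log2 difference from control (vertical axis) of each of the 9 genes (grey bands) and of the 3 tested genes on either side, in chromosome order and not to scale, for Sharp1 (circles) and shHIF (squares). The neighbours lie between -0.85 and 0.73, and the largest falls among them are LOC101927609 and ABCG1 in Sharp1 cells.

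Genes of the same families and pathways were tested as 9 lists with 185 entries, of which 166 were tested. In Sharp1 cells 19 entries were higher and 25 lower, 26.5% beside 27.2% of all genes. In shHIF cells 34 were higher and 22 lower, 33.7% beside 30.8%. Of the 166, 70 were not above the median probe set. Calls depend on signal: among all genes above the median probe set 39.8% were called in Sharp1 and 44.1% in shHIF against control, and among the others 5.06% and 7.59%. By direction, 15.3% of all genes were higher and 11.8% lower in Sharp1 cells, and 17.6% and 13.2% in shHIF cells.

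Of 14 other members of the same families, 3 were above the median probe set. In the limma fit 2 of the 14 rose and 0 fell in Sharp1 cells, and 3 rose and 0 fell in shHIF cells. At an unadjusted p under 0.05 the counts were 2 higher and 0 lower, and 5 higher and 0 lower. TXNDC12, a thioredoxin-domain relative of AGR2, rose by 0.15 in Sharp1 cells (limma adjusted p = 0.0024), and SPINK13 rose by 0.34 in shHIF cells (adjusted p = 0.0059). TCN2, the carrier that delivers cobalamin to cells, rose by 0.27 in shHIF cells (adjusted p = 0.0292), a call lost without shHIF array A, shHIF array D, both of these, control array A or control array B (adjusted p up to 0.361). LYZL1, a testis relative of lysozyme, passed narrowly in Sharp1 cells (0.29, adjusted p = 0.0492) and in shHIF cells (0.34, adjusted p = 0.0195). These calls were lost in 8 and 4 of the alternatives, among them those without control array A or D (adjusted p up to 0.163 and 0.0992 over all alternatives). SPINK5 was not analysed here.

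Of 18 mucins and mucus gel proteins, 1 rose in Sharp1 and 3 in shHIF cells in the limma fit, and 0 fell in either, nor did any at an unadjusted p under 0.05. The shares called were 5.56% and 16.7%, and 7 of the 18 were above the median probe set. Among all genes not above it, 5.06% and 7.59% were called, so the lack of falls says little about the dim mucins. DMBT1, a mucosal scavenger receptor glycoprotein, rose by 1.25 in Sharp1 (SE 0.06, limma adjusted p = 3.74e-14) and by 1.06 in shHIF cells (adjusted p = 2.67e-12). MUC3A, a membrane mucin, rose by 0.34 in shHIF cells (adjusted p = 0.00983, and 0.0569 without shHIF arrays A and D), and its Sharp1 difference was 0.06 (adjusted p = 0.778). Of 33 other mucosal secreted or mucosal marker proteins, 2 rose and 1 fell in Sharp1 cells and 4 rose and 0 fell in shHIF cells. At an unadjusted limma p under 0.05, 3 were higher and 5 lower in Sharp1 cells, and 9 higher and 0 lower in shHIF cells. The shares called were 9.09% and 12.1%, and 10 of the 33 were above the median probe set. ANXA10, an annexin of gastric epithelium, rose by 1.71 in shHIF (SE 0.07, adjusted p = 4.57e-15) and by 0.59 in Sharp1 cells (adjusted p = 2.98e-07). S100P fell by 0.72 in Sharp1 cells (adjusted p = 3.42e-07), and the antimicrobial peptide gene DEFB1 rose by 0.44 in shHIF cells (adjusted p = 0.00172). In the limma fit 0 of 10 gastric markers passed in either comparison, and at an unadjusted p under 0.05 2 were lower in Sharp1 and 2 higher in shHIF cells. Of the 10, 5 markers, GKN1, CLDN18, VSIG1, ATP4A and CBLIF, were below the median probe set in every group. The mean of all 10 gastric markers was 5.09 to 5.24 on control, 5.16 to 5.24 on shHIF and 5.06 to 5.11 on Sharp1 arrays.

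Of 25 transcription factors of secretory epithelium, 4 rose and 4 fell in Sharp1 cells, and 3 rose and 4 fell in shHIF cells. The shares called were 32% and 28%, beside 27.2% and 30.8% of all genes, and 16 of the 25 were above the median probe set. KLF4, a factor of differentiating epithelium, fell by 1.17 in Sharp1 (SE 0.05, limma adjusted p = 2.5e-15) and rose by 0.27 in shHIF cells (adjusted p = 0.000169). SPDEF, a factor of goblet cell differentiation, fell by 0.88 (SE 0.06, limma adjusted p = 1.39e-11) with Sharp1. The 5 probe sets of SPDEF ran from -1.14 to 0.06 in Sharp1 cells. In shHIF cells SPDEF fell by 0.38 (adjusted p = 1.84e-05), a call lost with the mean of its probe sets (adjusted p = 0.180). EHF, an epithelial ETS factor, rose by 0.77 in Sharp1 cells (limma adjusted p = 1.27e-12), its 6 probe sets running from 0.06 to 0.77. XBP1, which drives the secretory pathway, rose by 0.52 in Sharp1 cells (limma adjusted p = 9.88e-07), its 2 probe sets running from 0.13 to 0.52.

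Of 18 folding genes of the endoplasmic reticulum, the compartment where AGR2 works, 1 rose and 6 fell in Sharp1 cells and 6 rose and 4 fell in shHIF cells. All 18 were above the median probe set, and their shares called, 38.9% and 55.6%, stand beside the 39.8% and 44.1% of genes of such signal. ERP29, a chaperone of secretory proteins, fell by 0.73 in Sharp1 (limma adjusted p = 1.1e-10) and rose by 0.25 in shHIF cells (adjusted p = 0.00101). HSP90B1 fell by 0.43 in Sharp1 (adjusted p = 8.3e-08) and by 0.17 in shHIF cells (adjusted p = 0.00595). KDELR3, a receptor that returns proteins to the compartment, rose in both, by 0.74 and 0.59 (adjusted p = 3.91e-12 and 5.08e-10). ERO1A, the oxidase that recharges disulfide isomerases, fell by 0.40 in shHIF cells (adjusted p = 4.51e-09), and its Sharp1 difference was 0.06 (adjusted p = 0.262). Its 3 probe sets ran from -0.40 to 0.16 in shHIF cells. Over the other settings its shHIF difference lay between -0.41 and -0.09 (limma adjusted p up to 0.0434).

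Of 20 genes that build the O-linked glycans of mucins, 6 rose and 4 fell in Sharp1 cells and 7 rose and 6 fell in shHIF cells. The shares called were 50% and 65%, beside 27.2% and 30.8% of all genes. Of the 20, 15 were above the median probe set, where 39.8% and 44.1% of all genes were called. GALNT14, which starts such chains, fell by 0.80 in Sharp1 (limma adjusted p = 5.21e-09) and rose by 0.66 in shHIF cells (adjusted p = 1.59e-07). GCNT1, which branches them, rose by 0.59 in Sharp1 (adjusted p = 1.07e-06) and fell by 0.82 in shHIF cells (adjusted p = 6.84e-09). Of 10 receptors and target proteases, 1 rose and 2 fell in Sharp1 cells and 3 rose and 0 fell in shHIF cells, 30% called in each. At an unadjusted limma p under 0.05, 1 was higher and 3 lower in Sharp1 cells, and 3 higher and 0 lower in shHIF cells. EGFR, a receptor that trefoil peptides can engage, was 1 of the falls in Sharp1 cells (-0.29, limma adjusted p = 0.0342). The 9 probe sets of EGFR ran from -0.37 to 0.21 in Sharp1 cells. The EGFR call was lost without Sharp1 array B (limma adjusted p = 0.188), control array A (0.138) or control array C (0.0929). It was also lost with eBayes without trend (0.146). PRSS2, a trypsin of the kind SPINK1 blocks, fell by 0.64 in Sharp1 (adjusted p = 1.02e-07) and rose by 0.77 in shHIF cells (adjusted p = 6.12e-09). Trypsin genes are near-identical copies whose probe sets can share signal, so the PRSS2 values are uncertain.

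Of 15 genes that carry or use cobalamin, the cargo of TCN1, 1 rose and 1 fell in Sharp1 cells and 3 rose and 6 fell in shHIF cells. The shares called were 13.3% and 60%, beside 27.2% and 30.8% of all genes. Of the 15, 12 were above the median probe set, where 39.8% and 44.1% of all genes were called. The cobalamin-dependent enzymes MTR and MMUT fell by 0.54 and 0.30 in shHIF cells (limma adjusted p = 2.69e-07 and 8.32e-06). MTRR and CD320 rose by 0.18 and 0.16 in shHIF cells (limma adjusted p = 0.0032 and 0.0119). The CD320 call was lost without control array B (limma adjusted p = 0.0648) or shHIF array B (0.0527). Of 17 genes known as oestrogen targets, a group to which TFF1 belongs in other breast cancer cells, 2 rose and 7 fell in Sharp1 cells and 3 rose and 2 fell in shHIF cells. The shares called were 52.9% and 29.4%, beside 27.2% and 30.8% of all genes. Of the 17, 11 were above the median probe set, where 39.8% and 44.1% of all genes were called. ESR1, the oestrogen receptor gene, read 6.275 in control cells on its brightest probe set and is named after its values were seen. It differed by 0.02 in Sharp1 (limma adjusted p = 0.934) and by 0.18 in shHIF cells (adjusted p = 0.168). The targets PGR and GREB1 did not pass in either comparison. They read 3.485 and 4.578 in control cells, below the median probe set, where 5.06% and 7.59% of all genes were called. Their lack of calls thus says little. IGFBP4 fell by 1.23 and 0.50 (adjusted p = 6.41e-12 and 2.69e-05) and the carbonic anhydrase CA12 by 1.20 and 0.39 (adjusted p = 3.72e-12 and 0.000264) in Sharp1 and shHIF cells. The 7 probe sets of CA12 ran from -1.60 to 0.07 in Sharp1 and from -0.57 to 0.12 in shHIF cells. TPD52L1 fell by 1.15 in Sharp1 cells (adjusted p = 1.47e-12). In shHIF cells it rose by 0.27 (adjusted p = 0.0035), a call lost with the mean of its probe sets (adjusted p = 0.306). NRIP1, a corepressor of oestrogen receptor, rose by 1.06 in Sharp1 cells (adjusted p = 8.14e-11), and its shHIF difference was -0.01 (adjusted p = 0.943).

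**Figure D4:**
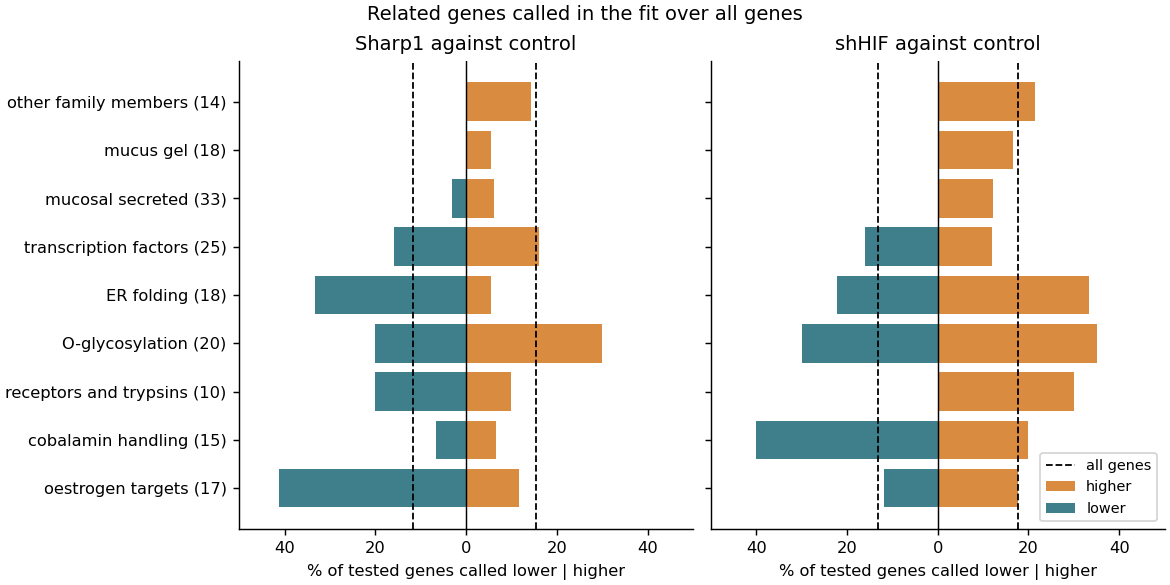
Share of the tested genes of each list that were lower (left bars) or higher (right bars) at an adjusted p under 0.05, as a percent of the genes tested, whose number stands in brackets, for Sharp1 (left panel) and shHIF (right panel) against control, with the share of all genes as dashed lines. The lists hold 10 to 33 genes, and in Sharp1 cells folding genes (6 of 18) and oestrogen targets (7 of 17) have the longest bars of lower genes; all 18 folding genes are above the median probe set, where 39.8% of all genes were called in either direction.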

How the data were processed

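The authors' deposited values are log2 expression values made by RMA from Affymetrix arrays hybridised with biotin-labelled cRNA, per the submitters' processing notes and the labels' protocols; the sources used here do not state the RMA version. All 12 arrays were used, without further normalisation. Gene names came from the platform's annotation, in which 41091 probe sets had 1 symbol, 1801 several and 11783 none. Symbols were checked by gene ID against RefSeq (GRCh38.p14), used also for gene order and promoters. For each of 19775 genes the probe set of highest mean was taken. In R 4.3.3 with limma 3.58.1, group means were fitted to all arrays, tested after eBayes with trend and adjusted by Benjamini-Hochberg over all genes, with no filter on low values. The fit was tested on simulated data. RMA values have no count depth; the number of arrays and signal over background limit the precision.

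The 9 genes and all lists were chosen with earlier results of these data known. Named are all 9 genes, up to 3 called genes per list, direction and comparison against control, AGR3, GKN1, TCN2 and SPINK5, neighbours called with a change of at least 0.5, and the 2 nearest genes by pattern; not all named genes are described. Other settings tried were centring arrays on their medians, leaving out dim genes, averaging probe sets, eBayes without trend, array weights, only the groups compared, a replicate block, and leaving out arrays.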

Additional observations from a re-analysis of the deposited data

Results flagged for a closer look

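In none of the 33 groups of 4 arrays of the 9 genes' probe sets did 1 array stand apart by Dixon's test. Over all 279 groups tested for named genes, 10 held such an array, and chance gives about 1 in 20, so nothing is read from which arrays these were.

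Of genes with a pattern or role near the 9 or beside them, 4 had control array D apart from the other control arrays. ANXA10 read 8.14 there against 7.83 to 7.85, and EHF read 10.19 against 10.06 to 10.07. LOC101927609 beside AGR3 read 6.14 against 5.95 to 5.97, and TMCC3, near TFF3 in pattern, read 7.76 against 7.55 to 7.57. TMCC3 was picked for its likeness to TFF3 over all arrays, control array D included. Sharp1 array B stood apart for EGFR at 10.2 (others 10.78 to 10.88), for FKBP4 at 9.4 (9.19 to 9.21) and for C5orf46 beside SPINK1 at 6.94 (7.03 to 7.04). S100P read 6.03 on Sharp1 array A against 6.29 to 6.33. RUNDC3B, near LYZ in pattern, read 5.55 on control array C against 6.02 to 6.09. ARRDC4, near TCN1 in pattern, read 5.91 on control array A against 6.16 to 6.17.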

How the results depend on the processing

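For the 9 genes, 291 of 528 differences under another setting changed at all, since some settings alter only the error or another group; of these 4 moved by more than 1 SD between replicates and 0 reversed. The 4 are AGR2 and LYZ in Sharp1 against control and AGR2 in Sharp1 against shHIF with probe sets averaged (-1.78, -0.84 and -2.05), and LYZ in Sharp1 against shHIF without shHIF arrays A and D (-0.83). Without dim genes, which removes GKN2, SPINK1, LYZ and TCN1, the number of the 9 that were at least 2-fold higher was 0 in place of 1 in Sharp1 against control, 1 in place of 3 in shHIF against control and 0 in place of 1 in Sharp1 against shHIF. The number at least 2-fold lower in Sharp1 than in control was then 5 in place of 7, and 6 with probe sets averaged. Of 128 differences of named genes from control, 22 lost a call, 7 gained one and 2 reversed under at least 1 setting. With probe sets averaged, BHLHE41 in Sharp1 against control was 1.19 in place of -2.06, and C1GALT1 in shHIF against control -0.031 in place of 0.30.

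The replicate letters did not pair the arrays: of 12 correlations between same-lettered arrays, from -0.18 to 0.14, 1 was over 0.1. With a replicate block, 5186 genes were called in Sharp1 against control (5370 without), 5897 in shHIF against control (6095) and 7373 in Sharp1 against shHIF (7588). Dim signal limits the values of GKN2, SPINK1, LYZ and TCN1, and of TFF1 in Sharp1 cells.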
